A study of Mus musculus with 17 samples.

Results

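Matrix metalloproteinases (Mmp genes), ADAMTS proteases (Adamts genes), ADAMTS-like proteins (Adamtsl genes) and tissue inhibitors of metalloproteinases (Timp genes) were followed through 17 mouse RNA-seq libraries. The genes were taken by name, as every gene called Mmp, Adamts or Adamtsl with a number and Timp1 to Timp4. A gene was kept in a table where it had at least 10 counts in at least 2 libraries, or in 1 library of the hippocampus table. Of 36271 genes listed in any of the 4 count tables, 50 carried such a name and 42 were kept in at least 1 table, 35 of them in all 4. By family these were 14 of 22 Mmp genes, 19 of 19 Adamts genes, 5 of 5 Adamtsl genes and 4 of 4 Timp genes. The 8 genes kept nowhere were Mmp1a, Mmp1b, Mmp8, Mmp10, Mmp13, Mmp20, Mmp21 and Mmp27, and none of them went above 13 counts in any library. At the limit, Mmp12 was kept in the hippocampus with 10 counts in its highest library and was not kept in set 2, where its highest library had 6.

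The study measured total RNA of C57BL/6 mouse primary neurons (14 libraries) and hippocampus (3 libraries). In the first table, ADM-treated neurons (ADM) stood beside neurons of the ADM control, with 2 libraries each. In the second (set 1), neurons given an ApoE particle stood beside control neurons, with 2 libraries each. In the third (set 2), neurons given a reconstituted ApoE particle, neurons given an ApoE particle and control neurons had 2 libraries each. The hippocampus table held 1 library each of ApoE shRNA mice with FC, control shRNA mice with FC and control shRNA mice without FC, so every hippocampal library came from a mouse given a short hairpin RNA (shRNA). The labels spell out neither ADM nor FC and give no dose, time or age, and they do not tell whether replicate libraries were grown as separate cultures. The p-values therefore measure only the spread between these libraries, which may be technical. ApoE is the main lipid-carrying apolipoprotein of the brain, made mostly by astrocytes.

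Library totals ran from 14624082 to 19142353 counts. The 2 ADM libraries stood apart from each other. Of genes with a group mean of 1 CPM (counts scaled to a common total) or more, 13.5% were at least 2-fold apart between them. In the other neuron groups this was 0.566% to 5.84%. The libraries labelled as neurons carried RNA of other cells. Summed over 8 astrocyte markers, they held 613 to 4046 CPM, beside 4756 to 7231 CPM for 8 neuron markers, while microglia markers summed to 76.5 to 294 CPM over 10 genes in set 1 and to 3.93 to 4.73 CPM over the 8 genes listed in set 2. In bulk RNA, fewer cells of a type and less RNA per cell cannot be told apart.

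Mmp proteases are zinc enzymes, secreted or held at the cell surface, that cut collagens, laminins, fibronectin and many surface proteins. Adamts proteases are secreted relatives, several of which cut the chondroitin sulphate proteoglycans that make up most of the matrix around neurons, and Adamtsl proteins share their ancillary domains but have no protease domain. Timp proteins bind the active sites of these enzymes, and Timp3 is the member known to inhibit ADAMTS proteoglycanases as well as Mmp enzymes.

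Upstream sequences are shown for 6 genes, chosen after their values and motif matches were seen. Timp1, Adamts1, Adamtsl3 and Adamtsl4 were called in several comparisons below, and Mmp3 and Mmp12 are the 2 members with a match to the AP-1 site. Each is the 250 bases before a RefSeq transcript start in GRCm38.p6, written 5′ to 3′ on the strand of the gene. Capitals mark matches on either strand to 1 of 3 motifs, some of which may overlap. The GC box was searched as GGGCGG. The TATA box was searched with the letters TATAAA. For the AP-1 site the letters were TGANTCA. The windows are chrX:20869916-20870165 (plus strand, Timp1), chr16:85803114-85803363 (minus strand, Adamts1), chr9:7445572-7445821 (plus strand, Mmp3), chr9:7347124-7347373 (plus strand, Mmp12), chr7:82335444-82335693 (plus strand, Adamtsl3) and chr3:95687918-95688167 (minus strand, Adamtsl4).
Timp1: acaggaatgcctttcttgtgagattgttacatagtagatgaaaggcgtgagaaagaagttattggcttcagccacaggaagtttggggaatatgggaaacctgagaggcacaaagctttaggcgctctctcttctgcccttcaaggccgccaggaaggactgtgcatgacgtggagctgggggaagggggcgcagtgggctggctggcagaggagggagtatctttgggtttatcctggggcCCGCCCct
Adamts1: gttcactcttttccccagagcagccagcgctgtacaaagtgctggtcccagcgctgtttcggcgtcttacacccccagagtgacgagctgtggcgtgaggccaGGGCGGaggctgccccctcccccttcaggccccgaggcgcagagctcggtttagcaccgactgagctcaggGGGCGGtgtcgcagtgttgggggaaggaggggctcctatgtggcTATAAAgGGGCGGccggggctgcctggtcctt
Mmp3: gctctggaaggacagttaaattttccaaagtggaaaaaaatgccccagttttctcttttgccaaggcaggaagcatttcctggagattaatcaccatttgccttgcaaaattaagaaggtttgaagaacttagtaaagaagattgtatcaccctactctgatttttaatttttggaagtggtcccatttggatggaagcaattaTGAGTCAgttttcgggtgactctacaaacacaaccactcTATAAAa
Mmp12: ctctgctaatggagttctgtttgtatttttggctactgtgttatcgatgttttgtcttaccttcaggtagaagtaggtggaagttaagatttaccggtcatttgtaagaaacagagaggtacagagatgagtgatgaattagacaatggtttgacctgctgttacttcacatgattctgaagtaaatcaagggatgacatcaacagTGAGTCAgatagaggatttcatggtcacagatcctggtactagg
Adamtsl3: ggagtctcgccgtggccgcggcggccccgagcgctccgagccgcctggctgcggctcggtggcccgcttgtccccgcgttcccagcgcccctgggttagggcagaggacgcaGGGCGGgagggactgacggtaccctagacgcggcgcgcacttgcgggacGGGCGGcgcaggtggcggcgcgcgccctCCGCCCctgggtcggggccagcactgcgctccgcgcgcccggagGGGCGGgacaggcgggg
Adamtsl4: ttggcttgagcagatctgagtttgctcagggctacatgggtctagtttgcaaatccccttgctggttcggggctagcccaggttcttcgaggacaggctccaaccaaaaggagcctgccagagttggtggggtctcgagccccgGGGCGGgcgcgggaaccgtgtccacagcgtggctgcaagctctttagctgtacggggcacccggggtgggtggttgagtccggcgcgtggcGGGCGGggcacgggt

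The RefSeq table held 29 starts for 27 of the 42 kept genes. The AP-1 letters were found before 2 of these 29 starts, those of Mmp3 and Mmp12, 46 and 44 bases before the start, and before 6.75% of all 32851 listed starts. Mmp12 has 2 listed starts, and the window of the other, chr9:7344147-7344396, held 0 matches to AP-1. A TATA box lay before 3 of the 29 starts (Adamts1, Adamtsl2 and Mmp3) and before 12.4% of all starts. A GC box lay before 20 of the 29 starts, Timp1, Adamts1, Adamtsl3 and Adamtsl4 among them, and before 32.7% of all starts. The letters TTCNNNGAA of a STAT site were found before 1 of the 29 starts, that of Mmp23, and before 7.02% of all starts. These are matches of letters in a short window and say nothing about binding.

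Per length of exon, Timp2 was the most abundant member in every group. It stood at 84.5 CPM per kb in hippocampus of control shRNA mice with FC, its lowest group, and at 178 CPM per kb in set 1 ApoE particle neurons, its highest. Timp2 inhibits Mmp2 and, together with Mmp14, also takes part in activating it. Mmp24, a membrane-anchored protease of neurons, came next in each of the 7 neuron groups, at 22.5 to 49.9 CPM per kb. In the 3 hippocampus libraries the next gene was Mmp17, a protease tethered to the membrane by a lipid anchor, at 30.3 to 41.2 CPM per kb. Some members share their locus with other genes: Timp1 lies inside Syn1 on the opposite strand with 0 shared exon bases, and 21.3% of the exon length of Timp3 overlaps Syn3. The strand setting of the counting is not given in the sources used here, so counts in shared exon bases cannot be assigned with certainty.

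**Figure D1:**
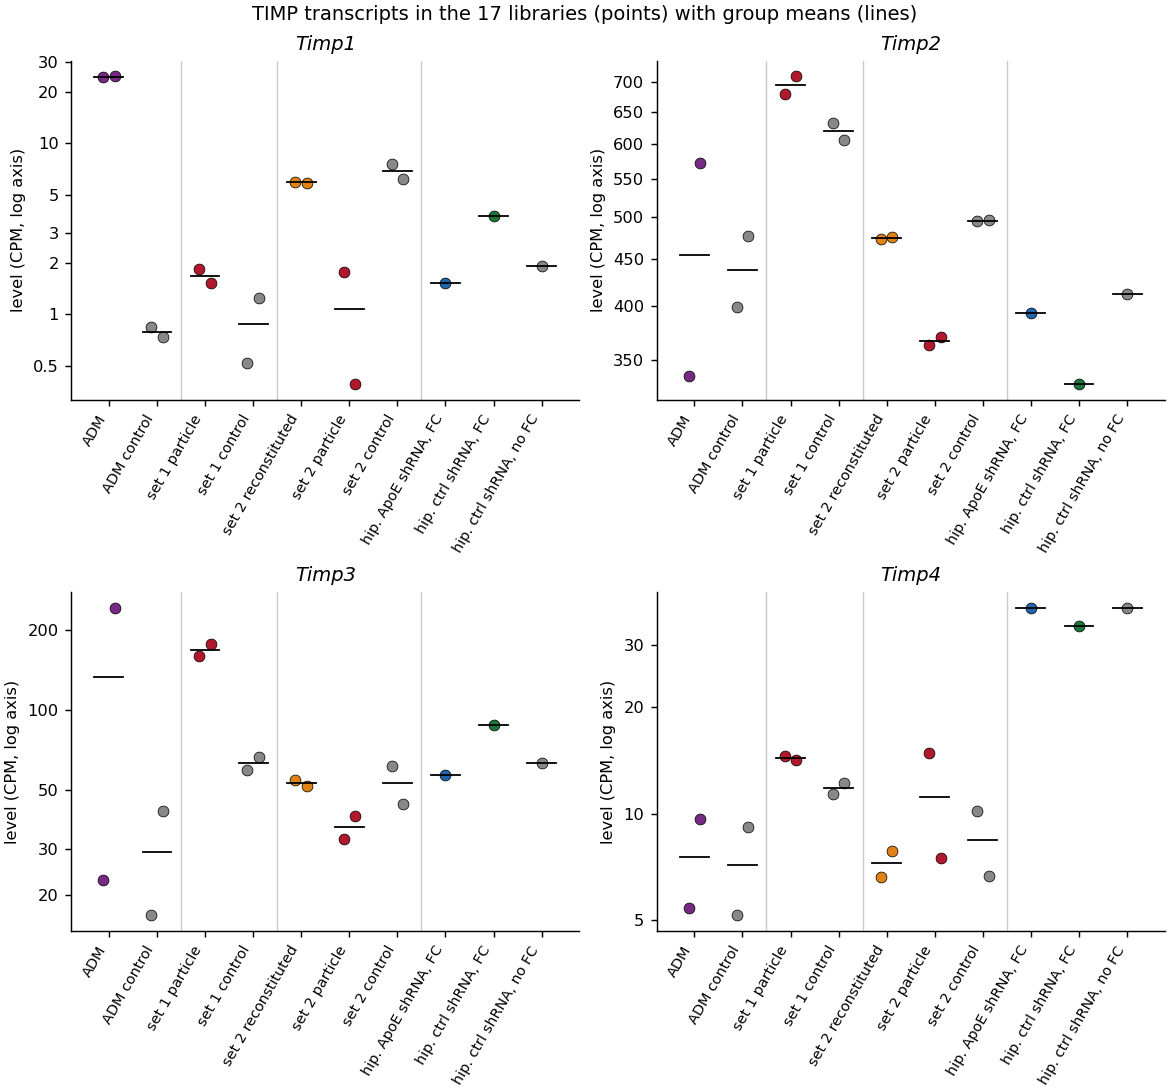
Levels of the 4 Timp genes in CPM on log axes, with 1 point per library and a line at each group mean. Timp1 sits near 24.5 CPM in both ADM libraries, against under 1 CPM in both ADM controls, and it is lowest of the set 2 groups in the ApoE particle libraries, at 1.77 and 0.389 CPM.

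In ADM-treated neurons the inhibitor Timp1 and the proteoglycanases Adamts1 and Adamts4 stood above the ADM controls in both libraries. So did other members, Mmp2, Mmp9, Mmp14, Adamts5 and Adamtsl4 among them, and the share of all genes split in this way is not given here. No member passed the test after adjustment. Of 38 members tested, 0 were called at an adjusted p under 0.05 by the quasi-likelihood F test of edgeR, as were 0 of 16191 genes (0.0%). At an unadjusted p under 0.05, 13 of the 38 members (34.2%) stood out, 12 higher and 1 lower, against 8.81% of all genes, 6.05% being higher. DESeq2 called 5 members, Timp1, Adamts1, Adamts4, Adamts14 and Adamtsl4, all higher, among 304 genes called in all. With the first ADM library left out 8 members passed, beside 3.75% of all genes, and with the second left out 2, Timp1 and Mmp3, beside 0.278%. With either ADM control left out 0 members and 0 genes passed.

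Timp1, an inhibitor known for its induction in injured and inflamed tissue, stood at 24.5 and 24.6 CPM in the ADM libraries, against 0.841 and 0.737 CPM in the ADM controls. Those levels rest on 366 and 409 counts in the ADM libraries, against 14 in each ADM control. The groups were far apart and the libraries of each group lay close together, with a log2 fold change of 4.95 ± 0.27 (SE; 95% interval 4.25 to 5.65; unadjusted p = 1.33e-05 and adjusted p = 0.215, edgeR). With 1 library left out the fold change of Timp1 stayed between 4.85 and 5.02. Its adjusted p was 0.0018 or 0.0023 without an ADM library and 0.561 or 0.449 without an ADM control. Timp2 stood at 336 and 573 CPM in the ADM libraries, against 400 and 477 CPM in the ADM controls, so the groups overlapped. Timp3 stood at 22.8 and 244 CPM in the ADM libraries, against 16.8 and 41.4 CPM in the ADM controls, and its log2 fold change of 2.2 ± 1.15 became −0.37 without the second ADM library. Timp4 stood at 5.41 and 9.69 CPM in the ADM libraries, against 5.16 and 9.16 CPM in the ADM controls.

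Among the Adamts genes, Adamts1, which cuts versican and aggrecan, stood at 69.1 and 98.6 CPM in the ADM libraries, against 31.9 and 27.8 CPM in the ADM controls (log2 fold change 1.49 ± 0.23, adjusted p = 0.428, edgeR). Adamts4, an aggrecanase, stood at 12.6 and 11.4 CPM in the ADM libraries, against 4.14 and 3.58 CPM in the ADM controls (1.64 ± 0.27 on the log2 scale, adjusted p = 0.428). Neither gene overlapped between the groups. The same held for many other members, Mmp17, Mmp24, Adamts10 and Adamts19 among them. With 2 libraries a group this is not a test of a difference. Adamts5, the other main aggrecanase, stood at 6.21 and 7.58 CPM in the ADM libraries, against 3.66 and 3.26 CPM in the ADM controls. Adamts9, which also cuts proteoglycans, overlapped, at 6.15 and 14.3 CPM in the ADM libraries, against 6.24 and 9.48 CPM in the ADM controls. Adamts3, a procollagen N-propeptidase that also cuts reelin, was the 1 member lower at an unadjusted p under 0.05, at 36.6 and 33.1 CPM in the ADM libraries, against 47.2 and 55.6 CPM in the ADM controls. Adamtsl4, a fibrillin-binding protein, stood at 6.35 and 12.2 CPM in the ADM libraries, against 0.841 and 1.63 CPM in the ADM controls (2.89 ± 0.55, adjusted p = 0.473).

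Of the Mmp genes, Mmp2, Mmp3, Mmp12, Mmp14 and Mmp19 were at least 2-fold apart between the 2 ADM libraries. The stromelysin Mmp3 stood at 10.5 and 0.602 CPM in the ADM libraries (157 and 10 counts) and had 0 counts in both ADM controls. Set against a floor of 3 counts over the control group, it was at least 62.8-fold higher, and at least 7.15-fold from the second ADM library alone. Mmp3 entered the test only through its counts in the ADM group. Mmp12, the macrophage elastase, stood at 18.8 and 0.782 CPM in the ADM libraries, against 0.42 and 1.32 CPM in the ADM controls, so the excess lay in the first ADM library alone. The opposite split held for the gelatinase Mmp2, at 9.69 and 51.5 CPM in the ADM libraries, against 2.1 and 7.32 CPM in the ADM controls. Mmp14, the membrane protease that activates Mmp2, stood at 33.7 and 75.8 CPM in the ADM libraries, against 15.7 and 26.4 CPM in the ADM controls. The gelatinase Mmp9 was low throughout, at 3.14 and 2.11 CPM in the ADM libraries, against 0.661 and 0.895 CPM in the ADM controls. The abundant membrane proteases stood close: Mmp16 stood at 87.4 and 74.1 CPM in the ADM libraries, against 89.8 and 83.8 CPM in the ADM controls, and Mmp24 at 163 and 131 CPM, against 173 and 180 CPM.

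Of 38 members with a mean of 1 CPM or more over the 2 ADM libraries, 15 (39.5%) were at least 2-fold apart between them. Of these 15, 13 were higher in the second ADM library. Among them were Adamts14, at 1.40 and 17 CPM, and Adamtsl3, at 2.2 and 28.3 CPM. The second ADM library was also high in 10 markers of vessels and fibroblasts, which summed to 67.2 and 1228 CPM in the ADM libraries, against 24 and 73.8 CPM in the ADM controls. Choroid plexus markers summed to 3.54 and 68.7 CPM in the ADM libraries, against 3.24 and 17.9 CPM in the ADM controls. Astrocyte markers summed to 1003 and 1173 CPM in the ADM libraries, against 613 and 1195 CPM in the ADM controls. Microglia markers summed to 11.1 and 34.0 CPM in the ADM libraries, against 10.2 and 48.1 CPM in the ADM controls. The part of these cells in the members' levels was not tested. Timp1, Adamts1 and Adamts4 differed by less than 2-fold between the ADM libraries. The transcript of Apoe did not pass the test, with a log2 fold change of −0.24 ± 0.72.

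**Figure D2:**
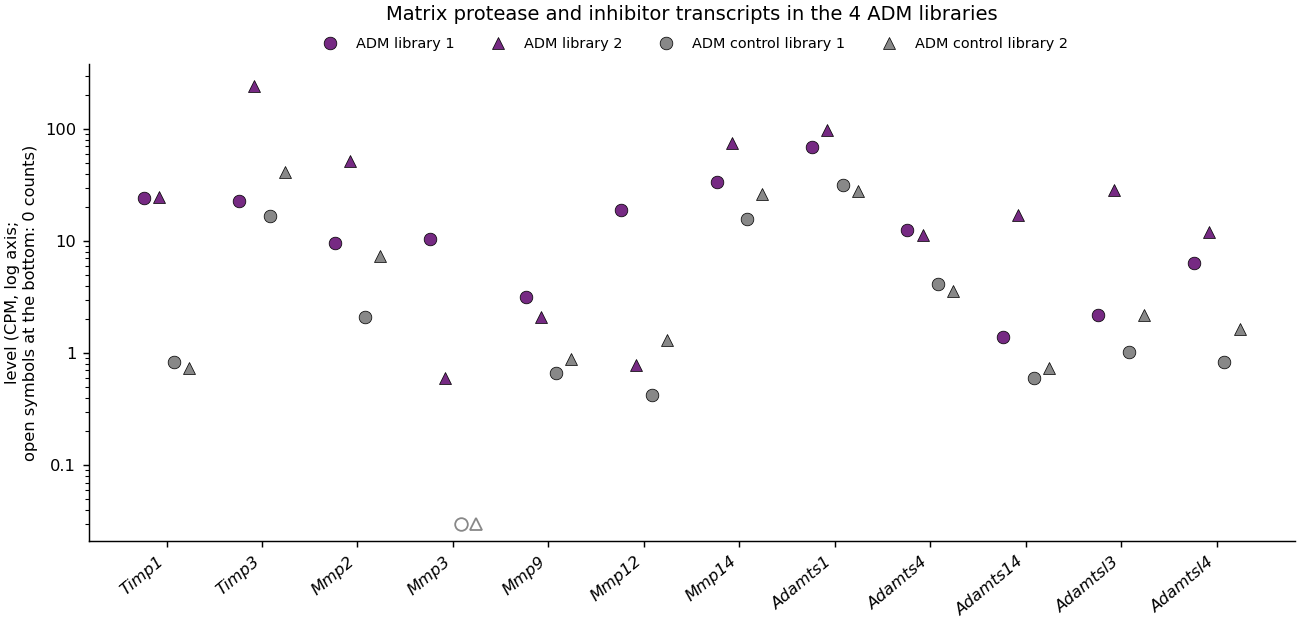
Levels of 12 members in the 2 ADM libraries and the 2 ADM control libraries, in CPM on a log axis, with open symbols at the bottom for 0 counts. Timp1, Adamts1 and Adamts4 show both ADM libraries above both controls, as do others such as Mmp9 and Adamtsl4. Mmp3 and Mmp12 are high in the first ADM library and Timp3, Mmp2, Adamts14 and Adamtsl3 in the second.

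In set 1, ApoE particle neurons had more RNA for Mmp2, Mmp11, Mmp12, Mmp14 and Mmp15, for several Adamts and Adamtsl genes and for Timp3, and less for the membrane proteases Mmp24 and Mmp17. Of 39 members tested, 16 were higher and 4 lower than in control (51.3% called), where 36.4% of all 16475 genes were called, 18.9% higher and 17.5% lower. The median log2 fold change was 0.37 over the members and −0.01 over all genes. Of all calls, 52% were higher, and with scaling to library totals only this was 65.6%, with 18 members higher and 4 lower and the median of all genes at 0.10. By family, 5 of 12 Mmp genes were higher and 2 lower, 7 of 18 Adamts genes higher and 1 lower, 3 of 5 Adamtsl genes higher and 1 lower, and 1 of 4 Timp genes higher.

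Timp3, the matrix-bound inhibitor, was the 1 Timp gene that rose, to 160 and 178 CPM in ApoE particle neurons, against 59.2 and 66.7 CPM in control (log2 fold change 1.42 ± 0.10, adjusted p = 3.14e-06). Its overlapping neighbour Syn3 had a log2 fold change of 0.06. Timp1 stood at 1.84 and 1.52 CPM in ApoE particle neurons, against 0.518 and 1.24 CPM in control, and did not pass (adjusted p = 0.139). Its adjusted p was 0.0191 without the second control library. Timp2 stood at 680 and 710 CPM in ApoE particle neurons, against 633 and 607 CPM in control (0.17 on the log2 scale, adjusted p = 0.173). It passed without the first control library (0.21, adjusted p = 0.00537) and with library totals only (0.27, adjusted p = 0.0319). Timp4 stood at 14.5 and 14.2 CPM in ApoE particle neurons, against 11.4 and 12.3 CPM in control (adjusted p = 0.155). The groups did not overlap for Timp1, Timp2 or Timp4. With 2 libraries each this is not a test of a difference, and the share of all genes split in this way is not given here.

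Of the secreted Mmp genes, Mmp12, Mmp2 and Mmp11 rose. Mmp12 stood at 16.5 and 16.6 CPM in ApoE particle neurons, against 3.37 and 2.37 CPM in control (2.53 ± 0.20, adjusted p = 5.63e-06). Mmp2 stood at 26.5 and 27.6 CPM in ApoE particle neurons, against 9.26 and 6.04 CPM in control (1.82 ± 0.18, adjusted p = 2.34e-05). Mmp11, a stromelysin-related protease, rose by 1.36 on the log2 scale. Of the membrane proteases, Mmp14 rose to 72.8 and 76.9 CPM in ApoE particle neurons, against 44.1 and 42.2 CPM in control (0.79 ± 0.09, adjusted p = 5.99e-05), and Mmp15 rose by 0.37. Mmp24 fell to 105 and 106 CPM in ApoE particle neurons, against 166 and 185 CPM in control (−0.74 ± 0.09, adjusted p = 9.8e-05). Mmp17 fell to 65.0 and 58.0 CPM in ApoE particle neurons, against 98.3 and 97.3 CPM in control (−0.67 ± 0.09, adjusted p = 0.000186). Mmp16 stood at 51.1 and 56.5 CPM in ApoE particle neurons, against 42.8 and 76.8 CPM in control, and the 2 control libraries lay on either side of both ApoE particle libraries. Its log2 fold change of −0.16 (adjusted p = 0.715) became 0.33 (adjusted p = 0.00288) without the second control library and −0.50 (adjusted p = 5.4e-07) without the first. Mmp9 stood at 1.29 and 1.01 CPM in ApoE particle neurons, against 2.40 and 1.66 CPM in control (adjusted p = 0.113, and 0.0421 without the second control library).

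Among the Adamts proteoglycanases, Adamts9 rose to 29.8 and 32.5 CPM in ApoE particle neurons, against 13.8 and 12.7 CPM in control (1.23 ± 0.12, adjusted p = 2.59e-05). Adamts1 rose to 55.9 and 62.0 CPM in ApoE particle neurons, against 33.8 and 37.9 CPM in control (0.72 ± 0.10, adjusted p = 0.000282). Adamts8 rose by 0.86, while Adamts15 fell by 0.54. The aggrecanases Adamts4 and Adamts5 did not pass: Adamts4 stood at 1.90 and 2.64 CPM in ApoE particle neurons, against 3.17 and 3.32 CPM in control, and Adamts5 at 4.42 and 3.93 CPM, against 2.59 and 3.91 CPM. The procollagen N-propeptidase Adamts14 rose to 3.5 and 3.59 CPM in ApoE particle neurons, against 0.713 and 1.18 CPM in control (1.88 ± 0.33), while its relatives Adamts2 and Adamts3 had log2 fold changes of −0.08 and −0.06 and did not pass. Adamts6 and Adamts7 rose by 0.86 and 0.87. Adamts19 rose by 0.72, a call lost without the first control library, without either ApoE particle library and with DESeq2. The calls of Adamts15 and Mmp15 were each lost without 1 of the 2 ApoE particle libraries.

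The Adamtsl genes held the member with the lowest adjusted p. Adamtsl3 rose to 28.5 and 36.1 CPM in ApoE particle neurons, against 5.12 and 4.26 CPM in control (2.79 ± 0.17, adjusted p = 1.85e-06). Adamtsl4 rose to 10.2 and 12.2 CPM in ApoE particle neurons, against 3.95 and 3.26 CPM in control (1.64 ± 0.20, adjusted p = 0.000101). Adamtsl1 rose by 0.74. Adamtsl2, another fibrillin-associated protein, went the other way, at 3.74 and 3.76 CPM in ApoE particle neurons, against 8.10 and 7.05 CPM in control (−1.01 ± 0.20, adjusted p = 0.00256).

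Genes of neighbouring systems were also called, in a comparison where 36.4% of all genes were. In the plasminogen system, which activates several Mmp proenzymes, 5 of 6 genes tested rose, with the urokinase gene Plau at 2.36 on the log2 scale, and 1 fell, the neuroserpin gene Serpini1. Of 12 other inhibitors, activators and receptors, 4 rose and 4 fell. The broad protease inhibitor A2m rose by 1.73, and the testican proteoglycans Spock1, Spock2 and Spock3 fell by 1.18, 0.65 and 1.39. Of 10 genes for lecticans and the perineuronal net, 2 rose and 3 fell, with Tnc at 0.97, Hapln1 at −1.10 and Acan at −1.23. Among these named genes only Acan, the aggrecan gene, is a lectican. Of 16 other matrix genes, 12 rose and 1 fell, led by the perlecan gene Hspg2 at 2.13. Of 10 membrane ADAM proteases, 3 rose and 4 fell, with Adam8 at 1.70 and Adam11 at −0.59. These lists had also been chosen with results of these data known.

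Markers of other cells differed between the same groups. All 10 microglia markers rose, their sum being 294 and 292 CPM in ApoE particle neurons, against 94.5 and 76.5 CPM in control. All 7 proliferation markers rose, to 598 and 688 CPM in ApoE particle neurons, against 230 and 205 CPM in control. Of 8 astrocyte markers, 7 rose and 1 fell, and their sum was 4046 and 3894 CPM in ApoE particle neurons, against 2965 and 2756 CPM in control. Of 9 vessel and fibroblast markers tested, 4 rose and 1 fell, and the summed markers stood at 285 and 311 CPM in ApoE particle neurons, against 91.3 and 70.9 CPM in control. Cldn5, a defining endothelial gene, was at 0 in all 4 libraries, and Cdh5 was at 0 in both ApoE particle libraries. Of 8 neuron markers, 7 fell, and their sum was 4964 and 4756 CPM in ApoE particle neurons, against 6771 and 7130 CPM in control. The part of these cells in the calls above was not tested. Apoe itself rose by 0.77 ± 0.14 (adjusted p = 0.00131).

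In set 2 the same named treatment went with lower RNA for most members that passed. Of 38 members tested, 13 were lower and 1 higher in ApoE particle neurons than in control (36.8% called), where 22.1% of all 16388 genes were called, 12.1% being lower. The median log2 fold change was −0.34 over the members and 0.0 over all genes. By family, 2 of 11 Mmp genes were lower, 7 of 18 Adamts genes lower and 1 higher, 2 of 5 Adamtsl genes lower and 2 of 4 Timp genes lower.

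Timp1 fell to 1.77 and 0.389 CPM in ApoE particle neurons, against 7.59 and 6.15 CPM in control (−2.68 ± 0.39, adjusted p = 0.000267). The counts were 30 and 7 in ApoE particle neurons, against 134 and 106 in control, and the 2 ApoE particle libraries were themselves more than 2-fold apart. The fold change was −1.95 without the second ApoE particle library and −4.11 without the first, and it passed in both cases. Timp2 fell to 363 and 370 CPM in ApoE particle neurons, against 494 and 496 CPM in control (−0.43 ± 0.04, adjusted p = 2.01e-08). Timp3 stood at 32.7 and 39.7 CPM in ApoE particle neurons, against 61.5 and 44.3 CPM in control, and did not pass (−0.55 ± 0.18, adjusted p = 0.0833). It passed with DESeq2 (adjusted p = 0.00239), with no filter on low counts, and without the second control or the second ApoE particle library. Timp4 stood at 14.9 and 7.51 CPM in ApoE particle neurons, against 10.2 and 6.67 CPM in control, and did not pass (adjusted p = 0.527, and 0.0035 without the second ApoE particle library).

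Adamts1 had the lowest adjusted p of the members, at 48.3 and 45.6 CPM in ApoE particle neurons, against 80.1 and 80.8 CPM in control (−0.78 ± 0.07, adjusted p = 8.55e-09). Adamts10, a fibrillin-associated protease, fell to 17.2 and 16.1 CPM in ApoE particle neurons, against 30.2 and 30.4 CPM in control (−0.86 ± 0.11, adjusted p = 1.85e-06). Adamts6, its closest relative, fell to 7.26 and 6.40 CPM in ApoE particle neurons, against 14.3 and 12.6 CPM in control (−0.98 ± 0.17, adjusted p = 0.000123). Adamts3 fell by 0.42. Adamts4, Adamts7 and Adamts20 passed with adjusted p between 0.025 and 0.0374, and each lost its call with DESeq2 and without 1 or more single libraries. Adamts19 was the 1 member that rose, to 4.07 and 3.73 CPM in ApoE particle neurons, against 1.76 and 1.63 CPM in control (1.2 ± 0.29, adjusted p = 0.00388). Adamts5 stood at 3.72 and 2.61 CPM in ApoE particle neurons, against 3.62 and 4.88 CPM in control, and Adamts9 at 6.61 and 7.68 CPM, against 10.5 and 8.01 CPM, and neither passed.

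Among the Mmp genes the calls were confined to 2 membrane proteases in the main test. Mmp14 fell to 32.9 and 31.2 CPM in ApoE particle neurons, against 44.1 and 44.5 CPM in control (−0.47 ± 0.10, adjusted p = 0.000822). Mmp17 fell to 72.9 and 64.9 CPM in ApoE particle neurons, against 86.0 and 94.4 CPM in control (−0.39 ± 0.07, adjusted p = 0.000217). Mmp24 stood at 236 and 232 CPM in ApoE particle neurons, against 216 and 216 CPM in control (0.11 on the log2 scale, adjusted p = 0.094). Mmp2 stood at 6.85 and 8.62 CPM in ApoE particle neurons, against 10.1 and 7.95 CPM in control, Mmp9 at 0.827 and 1.33 CPM, against 0.679 and 0.987 CPM, and Mmp16 at 54.9 and 59.3 CPM, against 58.5 and 58.7 CPM. These 3 overlapped between the groups and did not pass. Adamtsl3 fell to 4.49 and 5.01 CPM in ApoE particle neurons, against 9.74 and 7.60 CPM in control (−0.87 ± 0.19, adjusted p = 0.00172). Adamtsl4 fell to 1.71 and 1.11 CPM in ApoE particle neurons, against 3.91 and 4.70 CPM in control (−1.61 ± 0.30, adjusted p = 0.000318).

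Of the neighbouring genes, A2m fell by 1.68, in a comparison where 22.1% of all genes were called, 12.1% being lower. The counts of the lists below were not tested against that share. Of 9 lectican and perineuronal net genes tested, 0 rose and 3 fell (Hapln1 −1.0, Tnc −1.12 and Tnr −0.37). Of 12 other inhibitors, activators and receptors, 1 rose and 3 fell. Of 6 plasminogen system genes, 1 rose and 2 fell. Of 10 membrane ADAM proteases, 0 rose and 3 fell. Of 16 other matrix genes, 1 rose (Lama1, 1.31) and 8 fell, Thbs2 by 1.63 and Fbn1 by 0.83. The synapsin genes that overlap Timp genes fell too, Syn1 by 0.26, Syn2 by 0.29 and Syn3 by 0.42. Vessel and fibroblast markers summed to 51.6 and 82.3 CPM in ApoE particle neurons, against 206 and 136 CPM in control, with 6 of 8 lower. Astrocyte markers summed to 943 and 1030 CPM in ApoE particle neurons, against 1487 and 1394 CPM in control, with 6 of 8 lower and 1 higher. Microglia markers were near the limit of detection, at 4.25 and 4.73 CPM in ApoE particle neurons, against 4.47 and 4.59 CPM in control. The part of these cells in the calls was not tested. The Apoe transcript did not pass (−0.08 ± 0.08, adjusted p = 0.559).

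The reconstituted ApoE particle was compared with the same controls and with the ApoE particle, so these 3 comparisons share libraries. Against control, 0 of 38 members and 0 of 16388 genes (0.0%) were called. At an unadjusted p under 0.05 there was 1 member (2.63%), against 4.74% of all genes, and DESeq2 also called 0 members. That member was Mmp16, at 67.5 and 72.2 CPM with the reconstituted particle, against 58.5 and 58.7 CPM in control (0.25 ± 0.07, 95% interval 0.11 to 0.40, adjusted p = 0.982). The intervals cover only the spread between these libraries, which may be technical, and they were narrow for the abundant members. The log2 fold change of Timp2 was −0.06 (95% interval −0.15 to 0.02), with 474 and 475 CPM in reconstituted particle neurons, against 494 and 496 CPM in control. For Adamts1 it was −0.03 (−0.17 to 0.11), with 76.3 and 81.0 CPM in reconstituted particle neurons, against 80.1 and 80.8 CPM in control. Mmp24 gave −0.04 (−0.14 to 0.06), Mmp17 0.06 (−0.08 to 0.21) and Mmp14 −0.15 (−0.34 to 0.04). The intervals of the rarer genes were wider. Timp1, at 5.96 and 5.85 CPM in reconstituted particle neurons, against 7.59 and 6.15 CPM in control, gave −0.22 (−0.89 to 0.45), Timp3 0.00 (−0.42 to 0.43), Timp4 −0.22 (−1.20 to 0.76), Mmp2 −0.25 (−0.67 to 0.16), Mmp9 −0.02 (−1.11 to 1.07), Adamts4 0.14 (−0.41 to 0.70), Adamts5 0.28 (−0.23 to 0.78), Adamts9 −0.02 (−0.41 to 0.36), Adamtsl3 0.18 (−0.19 to 0.54) and Adamtsl4 −0.22 (−0.77 to 0.33). Apoe gave −0.10 ± 0.08.

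Set directly against the ApoE particle, reconstituted particle neurons had 12 members higher and 1 lower of 38 (34.2% called), where 20.3% of all genes were called, 11.4% higher and 8.88% lower. Adamts1 stood at 76.3 and 81.0 CPM in reconstituted particle neurons, against 48.3 and 45.6 CPM in ApoE particle neurons (0.75 ± 0.07, adjusted p = 1.9e-08). Timp2 stood at 474 and 475 CPM in reconstituted particle neurons, against 363 and 370 CPM in ApoE particle neurons (0.37 ± 0.04, adjusted p = 2.65e-07). Timp1 stood at 5.96 and 5.85 CPM in reconstituted particle neurons, against 1.77 and 0.389 CPM in ApoE particle neurons (2.46 ± 0.40, adjusted p = 0.000645), and this value was 1.73 or 3.90 when 1 ApoE particle library was left out. Adamtsl3 was higher by 1.04 ± 0.19 and Adamtsl4 by 1.39 ± 0.31. Adamts10, Adamts6, Adamts3 and Mmp17 were higher by 0.74, 0.73, 0.44 and 0.45. Mmp16 (0.29), Adamts4 (1.00) and Mmp14 (0.32) passed more weakly, and each lost its call without some single library, as did Adamts6 without the first reconstituted particle library. The 1 lower gene was Mmp24, at 211 and 210 CPM in reconstituted particle neurons, against 236 and 232 CPM in ApoE particle neurons (−0.15 ± 0.05, adjusted p = 0.026), and its call was lost when any of these 4 libraries was left out.

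Timp3 (0.55, adjusted p = 0.0873), Timp4 (−0.62, adjusted p = 0.341), Adamts5 (0.70, adjusted p = 0.0513), Adamts9 (0.35), Mmp2 (−0.03) and Mmp9 (−0.40) did not pass between the particles. Timp3 passed with DESeq2 (adjusted p = 0.00224), with no filter, without either control library and without the second ApoE particle library. Timp4 passed with no filter (adjusted p = 0.00753) and without the second ApoE particle library (0.000235). Adamts5 passed with no filter (adjusted p = 0.0447), without either control library (0.0401 and 0.0456) and without the first ApoE particle library (0.0358). Mmp12 had 11 counts over the reconstituted particle libraries, against 0 in the ApoE particle libraries, and was too low to be tested. A2m was higher by 1.69, in a comparison where 20.3% of all genes were called, 11.4% higher and 8.88% lower. Of 9 lectican and perineuronal net genes, 3 were higher and 0 lower. Of 16 other matrix genes, 8 were higher and 1 lower (Lama1, −1.40). Astrocyte markers, which summed to 1421 and 1471 CPM in reconstituted particle neurons, against 943 and 1030 CPM in ApoE particle neurons, had 6 of 8 genes higher. Vessel and fibroblast markers, at 139 and 159 CPM in reconstituted particle neurons, against 51.6 and 82.3 CPM in ApoE particle neurons, had 5 of 8 higher. Their part in the members' values was not tested. The labels do not say how the 2 kinds of particle differ beyond the word reconstituted. Apoe gave −0.02.

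The 2 ApoE particle experiments were then compared by the interaction of treatment and set. Of 39 members, the ApoE particle effect in set 2 lay below that in set 1 for 19 and above it for 3 (56.4% called), where 31.6% of 17272 genes were called, 16.5% below and 15.1% above. Of the 38 members tested in both sets, 6 were higher in set 1 and lower in set 2: Mmp14, Adamts1, Adamts6, Adamts7, Adamtsl3 and Adamtsl4. They are 15.8% of the members, beside 3.87% of the 15648 genes tested in both. The call of Adamts7 in set 2 was among those lost with single libraries left out. In both sets 1 member rose, Adamts19, and 1 fell, Mmp17. Another 13 were called in neither set.

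All 4 families took part. Among the inhibitors, the effect differed by −3.61 ± 0.66 for Timp1 (adjusted p = 0.000586), −2.0 ± 0.19 for Timp3 (adjusted p = 1e-05) and −0.63 for Timp2 (adjusted p = 1.66e-05), and by 0.10 for Timp4, which did not pass. For Timp1 the difference lay between −5.04 and −2.88 with 1 set 2 ApoE particle library left out. Of 5 Adamtsl genes, 3 lay below and 1 above, with Adamtsl3 at −3.68 ± 0.25 (adjusted p = 2.79e-09), Adamtsl4 at −3.28 ± 0.35 (adjusted p = 7.66e-07) and Adamtsl2 at 0.97. Of 18 Adamts genes, 8 lay below and 1 above, with Adamts1 at −1.52 ± 0.12 (adjusted p = 1.26e-08). Of 12 Mmp genes, 5 lay below and 1 above, with Mmp2 at −2.08, Mmp14 at −1.29 and Mmp24 at 0.82. The differences of Mmp9 (1.17, adjusted p = 0.165), Mmp16 (0.09), Adamts4 (−0.37) and Adamts5 (−0.81, adjusted p = 0.114) did not pass, though Adamts5 did without the second set 1 control library (adjusted p = 0.0348). The sets differ in more than the particle: their controls held different amounts of microglia and astrocyte marker RNA, as given above, and each set is a table of its own, so what else differed between the experiments cannot be told apart from the set. Apoe itself differed by −0.87 ± 0.20 (adjusted p = 0.00984).

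**Figure D3:**
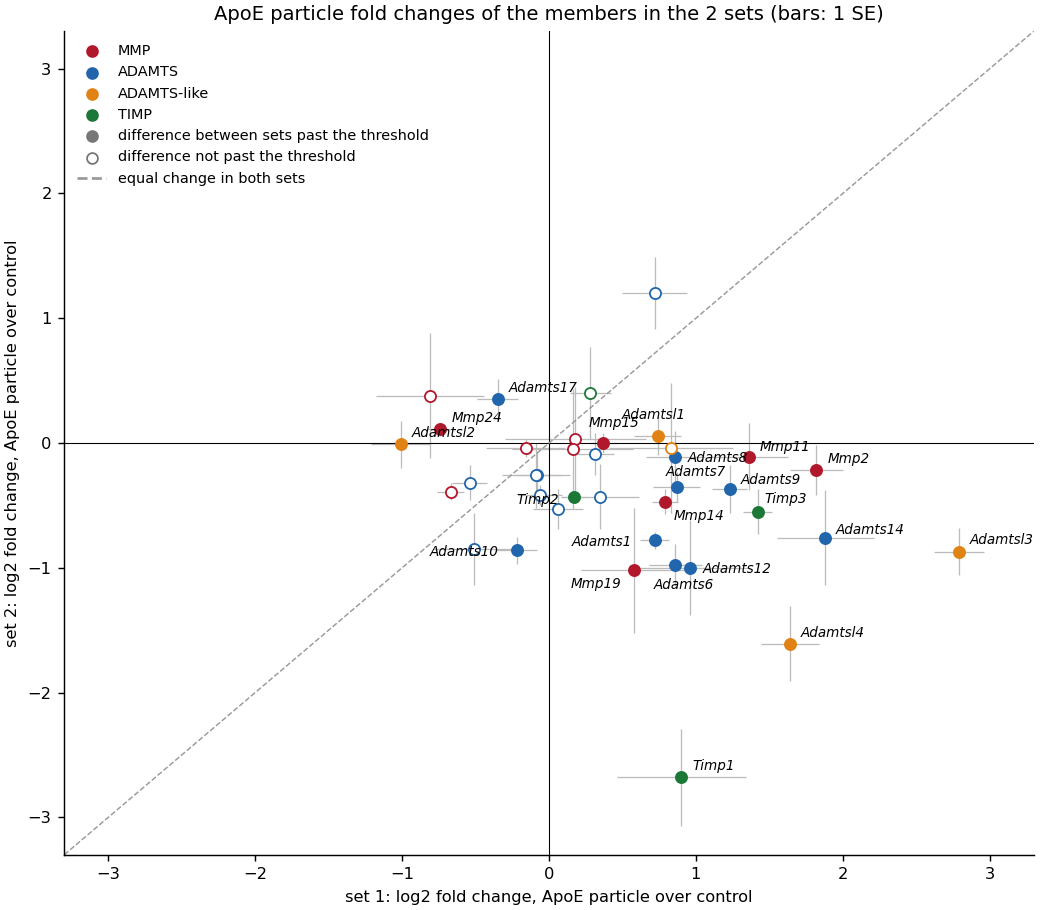
Log2 fold change of each member for the ApoE particle over control, in set 1 (horizontal) and set 2 (vertical), with bars of 1 SE, coloured by family. Filled points passed the test of the difference between sets. Most of them lie right of 0 and below the dashed line of equal change, with Adamtsl3, Adamtsl4 and Timp1 farthest from it.

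Set against the set 1 ApoE particle effect, the ADM effect differed for 0 of 40 members and 0 of 17292 genes (0.0%) after adjustment. At an unadjusted p under 0.05 it differed for 7 members (17.5%), against 10.2% of genes. Timp1 was farthest from equal effects by p, at 3.99 ± 0.54 (unadjusted p = 0.000107, adjusted p = 0.105), followed by Adamts4 at 2.1 ± 0.37 (adjusted p = 0.152). DESeq2 called these 2, both with a larger change in ADM, beside 1.44% of all genes. Mmp9 (2.51), Mmp19 (1.78), Adamts1 (0.73) and Mmp24 (0.43) were the others above 0, and Adamts19 (−1.87) the 1 below. Apoe differed by −1.05 and did not pass.

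In the hippocampus each group was 1 library, so there was no test, and the intervals cover counting error only. A gene counted as changed where its library ratio was past 1.5-fold and the higher of its 2 counts was 100 or more. Apoe, the target of the ApoE shRNA, stood at 1384 CPM in ApoE shRNA hippocampus with FC, 2797 CPM in control shRNA hippocampus with FC and 1697 CPM in control shRNA hippocampus without FC.

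With FC, control shRNA hippocampus differed from control shRNA hippocampus without FC past 1.5-fold for 8 of 25 members (32.0%), where 16.7% of all genes did, 12.3% higher and 4.46% lower. Of the 8 members, 5 were higher and 3 lower. Adamtsl3 stood at 8.21 CPM with FC, against 1.32 CPM without FC (146 and 24 counts), a log2 ratio of 2.61 (exact 95% binomial interval 2.01 to 3.32). Adamtsl4 stood at 22.0 CPM with FC, against 7.76 CPM without FC (1.5, interval 1.22 to 1.79), and Mmp2 at 5.79 CPM, against 2.59 CPM (1.15, interval 0.65 to 1.69). Adamtsl5 and Adamts6 were the other 2 above, at 0.69 and 0.67. Adamts9 stood at 3.26 CPM with FC, against 13.7 CPM without FC (−2.06, interval −2.51 to −1.65), with Adamts2 at −0.73 and Adamtsl2 at −0.61. The Timp genes stayed within 1.5-fold where counts allowed a reading: Timp2 stood at 329 CPM with FC, against 412 CPM without FC, Timp3 at 87.6 CPM, against 63.3 CPM, and Timp4 at 34.1 CPM, against 38.3 CPM. Timp1 had 67 counts with FC, against 35 without FC, under the count limit, with a log2 ratio of 0.96 (0.36 to 1.60).

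ApoE shRNA hippocampus with FC differed from control shRNA hippocampus with FC past 1.5-fold for 10 of 24 members (41.7%), where 22.3% of all genes did, 17.9% lower and 4.46% higher. Of the 10 members, 7 were lower and 3 higher. Adamtsl3 stood at 1.11 CPM with ApoE shRNA, against 8.21 CPM with control shRNA (21 and 146 counts), a log2 ratio of −2.85 (interval −3.62 to −2.22). Adamtsl4 stood at 5.93 CPM with ApoE shRNA, against 22.0 CPM with control shRNA (−1.89, −2.21 to −1.59). Mmp14 stood at 11.7 CPM with ApoE shRNA, against 24.6 CPM with control shRNA (−1.07, −1.31 to −0.83), and Mmp2 at 2.65 CPM, against 5.79 CPM (−1.12). Timp3 stood at 56.7 CPM with ApoE shRNA, against 87.6 CPM with control shRNA (−0.63, −0.74 to −0.51), and Adamts6 and Adamts4 had ratios of −1.05 and −0.72. Above 1.5-fold were Adamts9, at 8.15 CPM with ApoE shRNA, against 3.26 CPM with control shRNA (1.31, 0.88 to 1.78), Adamts8 (1.25) and Adamts3 (0.73). Within 1.5-fold were Timp2, Timp4, Mmp16, Mmp24 and Adamts1, at 0.26, 0.17, −0.25, 0.32 and −0.50. Timp1 had 29 counts with ApoE shRNA, against 67 with control shRNA, and Mmp9 had 44, against 29, both under the count limit. Mmp25, a leukocyte protease, had 2 counts with ApoE shRNA, 44 in control shRNA with FC and 9 in control shRNA without FC, also under it.

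These 2 comparisons share the control shRNA library with FC, and the markers of microglia and astrocytes were also highest in that library. Microglia markers summed to 251 CPM in ApoE shRNA with FC, 1534 CPM in control shRNA with FC and 333 CPM in control shRNA without FC. Astrocyte markers summed to 4123, 7326 and 5300 CPM in the same order. Vessel and fibroblast markers summed to 215, 279 and 305 CPM, and were highest in control shRNA without FC. The part of these cells in the ratios was not tested. The comparison that leaves this library out, ApoE shRNA with FC against control shRNA without FC, had 3 of 23 members past 1.5-fold (13.0%), all lower, where 7.21% of all genes were, 6.07% lower and 1.14% higher. They were Adamts9 (−0.75, interval −1.05 to −0.45), Mmp14 (−0.70) and Adamts4 (−0.65). Adamtsl4 gave −0.39 there, and Adamtsl3, with 21 counts in ApoE shRNA and 24 in control shRNA without FC, gave −0.24. Among neighbouring genes, A2m was higher by 2.70 and Plau by 1.90 with FC in control shRNA hippocampus. With ApoE shRNA they had ratios of −4.13 and −1.43 to control shRNA, both with FC.

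**Figure D4:**
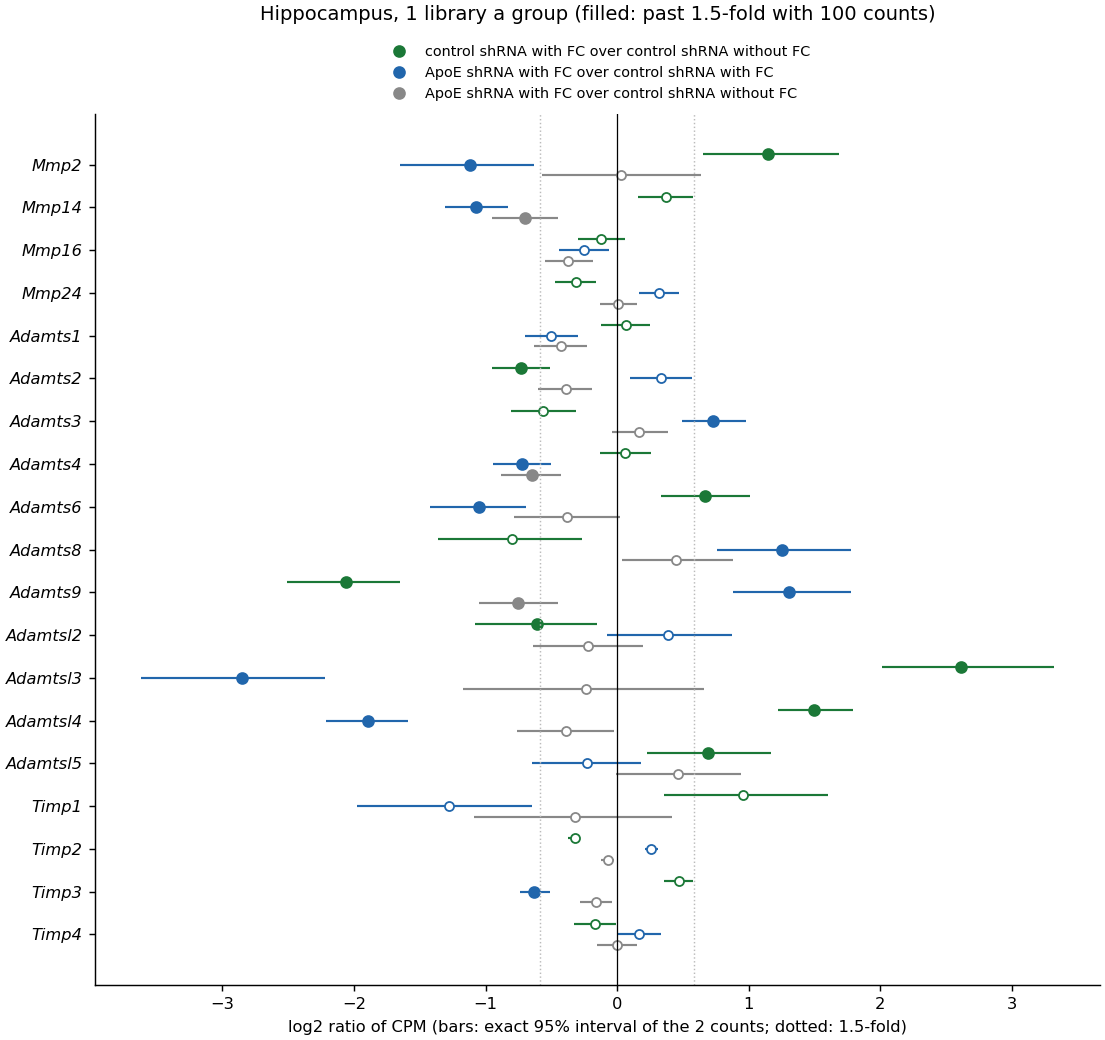
Log2 ratios of the members between single hippocampus libraries for the 3 comparisons, with exact 95% binomial intervals that cover counting error only and filled points past 1.5-fold with 100 counts. Of the filled points, Adamtsl3 and Adamtsl4 lie highest with FC over without FC and lowest with ApoE shRNA over control shRNA, whereas Adamts9 lies lowest in the one and highest in the other. Drawn are the members past 1.5-fold in any of the comparisons, and beside them Timp1, Timp2, Timp4, Mmp16, Mmp24 and Adamts1. The other members are not drawn, Mmp15, Mmp17, Mmp19 and Mmp25 among them, so the figure leans to changed genes.

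Across the comparisons the families differed in how many members passed. The Adamtsl family had the highest share called in set 1, where 4 of 5 genes passed, beside 7 of 12 Mmp, 8 of 18 Adamts and 1 of 4 Timp genes. In that comparison 36.4% of all genes were called. The Timp share lay below this, and the Adamts share (44.4%) was close to it. In set 2 the Timp family had the highest share for the ApoE particle over control, with 2 of 4 genes, beside 8 of 18 Adamts, 2 of 5 Adamtsl and 2 of 11 Mmp genes. Over all genes 22.1% were called there, so the Mmp share (18.2%) lay below it. With 4 or 5 genes in a family these shares move in large steps, and the differences between families were not tested. Adamtsl3 and Adamtsl4 were called in each of the set 1, set 2 ApoE particle, reconstituted against ApoE particle and between-set comparisons, and they were past 1.5-fold in 2 of 3 hippocampus comparisons. Both were higher in set 1 and lower in set 2. These calls are not independent: the last 2 neuron comparisons reuse the set 2 ApoE particle libraries, and the 2 hippocampus ratios share the control shRNA library with FC. Of the inhibitors, Timp1 was called in 3 of 7 neuron comparisons, Timp2 in 3, Timp3 in 2 and Timp4 in none by the main test. Those comparisons share libraries too. By the main test the aggrecanase Adamts5 was called in no neuron comparison, and Mmp9 likewise, though each passed in some alternatives, with Mmp9 at or under 3.14 CPM in every library.

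The summed level of each family weights it to its abundant members. Adamtsl genes summed to 59.8 and 69.9 CPM in set 1 ApoE particle neurons, against 26.3 and 26.2 CPM in control, and to 22.5 and 22.9 CPM in set 2 ApoE particle neurons, against 29.8 and 28.6 CPM in control. Timp genes summed to 856 and 904 CPM in set 1 ApoE particle neurons, against 704 and 687 CPM in control, and to 412 and 418 CPM in set 2 ApoE particle neurons, against 574 and 553 CPM in control, and most of either sum was Timp2. Mmp genes summed to 415 and 428 CPM in set 1 ApoE particle neurons, against 427 and 470 CPM in control. In the ADM libraries Timp genes summed to 389 and 851 CPM, against 422 and 528 CPM in the ADM controls.

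**Figure D5:**
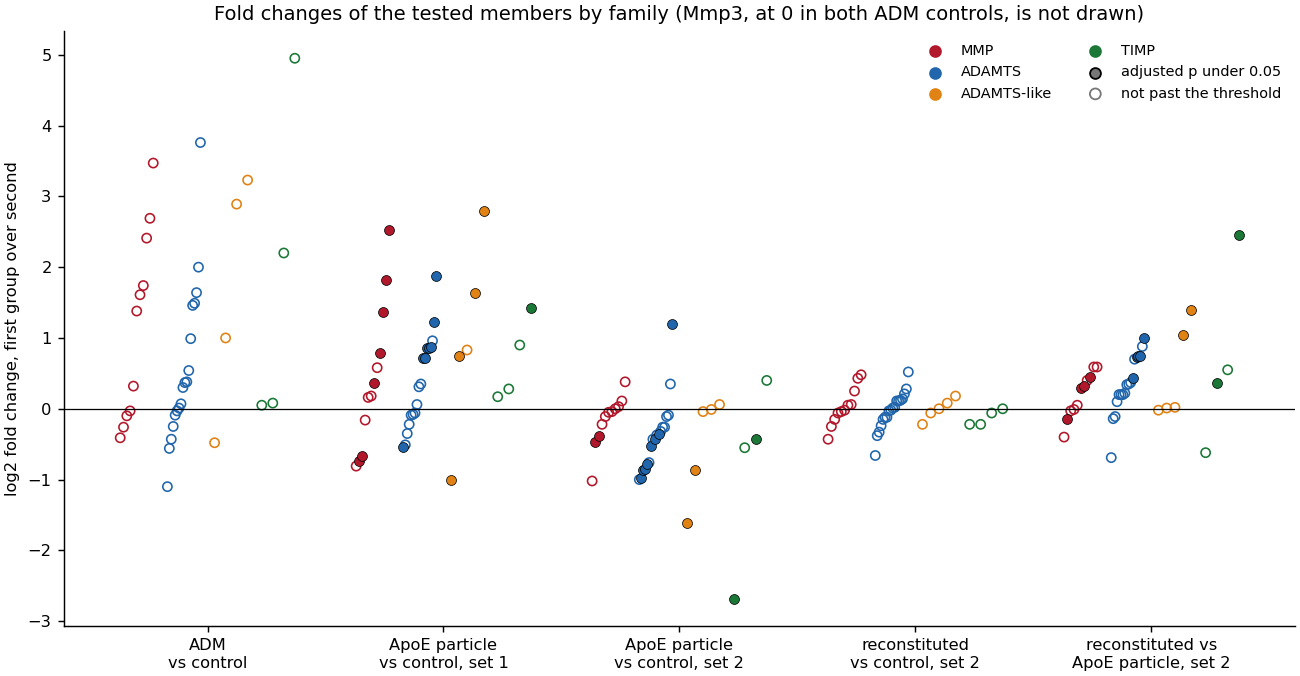
Log2 fold changes of the members tested in the 5 direct neuron comparisons, coloured by family, with filled points for an adjusted p under 0.05. Mmp3, at 0 counts in both ADM controls, is not drawn. Called members lie mostly above 0 in set 1 and in the reconstituted against ApoE particle comparison, and mostly below 0 for the ApoE particle in set 2.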

How the data were processed

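RNA of 14 libraries of primary neurons and 3 of hippocampus was sequenced on Illumina instruments from NEBNext Ultra RNA libraries, per the labels' protocols. The authors deposited raw counts per gene in 4 tables, with HISAT2 2.1.0, Bowtie2 2.2.3, HTSeq 0.6.0 and the mm10 build listed per the submitters' processing notes. How each was used, whether strand was counted and which annotation applied is not given in the sources used here. Library totals were 14624082 to 19142353 counts. In the set 2 table, 1489 genes with missing values, none of them a member, were left out.

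Neuron tables were tested with the quasi-likelihood F test of edgeR 4.0.16 (R 4.3.3, limma 3.58.1) on the counts, with filterByExpr, TMM scaling and Benjamini-Hochberg adjustment over all genes at 0.05, and the standard error was the fold change divided by the root of F. CPM in neurons used TMM-scaled totals within each table. The 2 tests between tables fitted both tables jointly with treatment by table terms. The hippocampus had 1 library a group, so log2 ratios of CPM (0.5 counts added) with exact Clopper-Pearson 95% intervals were given. CPM per kb used GENCODE vM21 exon lengths. The fit was tested on simulated counts. Alternatives were other scalings, other filters, DESeq2 1.42.0, the replicate number as a block and leaving out each library. Tables were joined in Python 3.11.15 (pandas 2.3.3, scipy 1.17.1) and plotted with matplotlib 3.10.9.

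Members and gene lists were chosen with earlier results of these data known. Genes named were, per neuron comparison, the called members, at most 15 taken by adjusted p, in the hippocampus all called members, and everywhere Timp1 to Timp4, Mmp2, Mmp9, Mmp14, Mmp16, Mmp24, Adamts1, Adamts4, Adamts5 and Adamts9, plus up to 4 called genes of each side list, of which 1 is not reported here. Others were named outside this rule, after their values were seen: Mmp3, Mmp12, Mmp19, Mmp25, and in the ADM table Adamts3, Adamts14, Adamtsl3 and Adamtsl4. In set 1 these were Adamts2, Adamts3 and the called members beyond the first 15 (Adamts8, Adamts15, Adamts19, Adamtsl1 and Mmp15). For the reconstituted particle against control they were Mmp17, Adamtsl3 and Adamtsl4. Adamtsl2 between sets and Adamts19 for ADM minus set 1 were named likewise. The flagged results name every member called between sets.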

Additional observations from a re-analysis of the deposited data

Results flagged for a closer look

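The ApoE particle effect differed between set 2 and set 1 for 22 of 39 members by the interaction test of edgeR (adjusted p under 0.05), where 31.6% of all 17272 genes did, given here as set 2 minus set 1 on the log2 scale. Lower in set 2 were the inhibitors Timp1 (−3.61), Timp2 (−0.63) and Timp3 (−2.0). The Mmp genes lower in set 2 were Mmp2 (−2.08), Mmp11 (−1.5), Mmp14 (−1.29), Mmp15 (−0.40) and Mmp19 (−1.64). The Adamts genes lower in set 2 were Adamts1 (−1.52), Adamts6 (−1.87), Adamts7 (−1.24), Adamts8 (−1.0), Adamts9 (−1.63), Adamts10 (−0.68), Adamts12 (−1.99) and Adamts14 (−2.68). Of the Adamtsl genes, Adamtsl1 (−0.71), Adamtsl3 (−3.68) and Adamtsl4 (−3.28) were lower in set 2. Higher in set 2 were Mmp24 (0.82), Adamts17 (0.67) and Adamtsl2 (0.97). Mmp19 (adjusted p = 0.0465), Mmp15, Adamts8, Adamts12, Adamts17 and Adamtsl1 lost the call under some alternatives. The groups held 2 libraries each, too few for a check of single libraries that stand apart.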

How the results depend on the processing

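For ADM against control the count of called members was 0 in the main fit, 3 with no filter on low counts, 5 with DESeq2 and 7 with the replicate block, and 0 to 8 with 1 library left out. For the ADM effect minus the set 1 effect it was 0, then 1 with no filter, 2 with DESeq2 and 2 with the replicate block, and 0 to 4 with 1 library left out. In the other neuron comparisons, the settings that kept all libraries stayed within 1.5 times the main count. In most comparisons the count also moved when 1 library was left out. Same-numbered libraries share only a number: their deviations correlated at 0.48 in ADM, 0.02 in set 1 and −0.08 to 0.04 in set 2. With the replicate block set 1 gave 22 calls (38.7% of all genes called), set 2 14 (19.8%), reconstituted against ApoE particle 13 (18.1%) and between sets 23 (31.3%). With a floor of 30 counts in the hippocampus, 14 of 35 members were past 1.5-fold for FC against no FC (21.4% of all genes) and 16 of 35 for ApoE shRNA against control shRNA with FC (26.7% of all genes). With TMM scaling Timp2 was 0.32 for ApoE shRNA against control shRNA, both with FC.

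Directions turned as follows, by lowest and highest fold change with 1 library left out. In ADM they were −0.39 to 0.37 for Timp2, −0.37 to 3.05 for Timp3, −0.42 to 0.54 for Timp4, −0.24 to 0.0 for Mmp16 and −0.37 to 0.84 for Adamts9. In set 1, Mmp16 gave −0.50 to 0.33. For the ApoE particle in set 2, Timp4 gave −0.17 to 0.82, Mmp9 −0.01 to 0.68 and Mmp16 −0.09 to 0.02. For the reconstituted particle against control, Timp3 gave −0.21 to 0.26 (−0.01 with library totals only), Timp4 −0.49 to 0.12, Mmp9 −0.34 to 0.27, Adamts1 −0.08 to 0.01, Adamts4 −0.12 to 0.46 and Adamts9 −0.23 to 0.18. Against the ApoE particle, Mmp2 gave −0.33 to 0.20. Between sets, Timp4 gave −0.47 to 0.51 and Mmp16 −0.39 to 0.45 (adjusted p = 0.0131 and 0.00261). For ADM minus set 1, Timp2 gave −0.59 to 0.18, Timp3 −1.82 to 1.60, Timp4 −0.73 to 0.23, Mmp2 −0.84 to 2.0, Mmp14 −0.16 to 1.0 and Mmp16 −0.46 to 0.35 (−0.03 with library totals only, −0.01 with no filter and −0.05 with the replicate block). Mmp16 alone turned between calls; the cause of these shifts was not tested. A lone library was assumed to vary like the other groups. Depth limits Timp1, Mmp9 and Mmp12, with few counts in many libraries.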
